A study of Mus musculus with 14 samples.

Results

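Partial induced pluripotent stem cells (partial iPSCs) of the mouse clone 2B1 that had received Trim28 by retrovirus were set against the same clone with an empty vector, on 1 expression array each. Members were the probe sets that carry exactly 1 gene symbol and differ by at least 1 on the log2 scale, which is 2-fold, between the deposited values of those arrays. This rule found 554 of 34945 probe sets, from 455 genes of 18193. On the array labelled Trim28, 214 probe sets (0.612%) of 169 genes were higher and 340 (0.973%) of 287 genes were lower. The gene Neo1, a receptor for netrins, had a probe set in each direction and counts in both. These values chose the members, so they are given as a description, and with 1 array a group there is no test and no estimate of error.

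The series holds 14 arrays of mouse cells, made to follow cells on their way to full pluripotency. Partial iPSCs are reprogrammed cells that have stopped short of that state. The transduced arrays are 7: 2B1 with Trim28, with Cnot1, with Cnot2, with Cnot3, with a combination of these Cnot factors (called Cnot123 here), with Nanog, and with empty vector. By their labels all 7 samples are female, C57BL/6, derived from the single clone 2B1, and grown in medium with serum and leukemia inhibitory factor. Empty vector and Nanog are described as stably integrated, and the other factors as incorporated after infection with retrovirus. By these labels the array labelled Trim28 differs from its control in delivery as well as in the factor. Factor and delivery cannot be told apart in any difference between them. The remaining arrays used below are untreated 2B1, untreated 5C5 (a second partial clone, same sex, strain and medium), male embryonic stem cells from blastocysts of Nanog-GFP mice of the same strain, and fibroblasts of mixed sex from 12.5 dpc embryos of such mice, grown without leukemia inhibitory factor.

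Trim28 is a scaffold protein of gene silencing. Zinc finger proteins with a KRAB domain bring it to DNA, where it gathers the histone methyltransferase Setdb1, heterochromatin proteins and histone deacetylases. In mouse embryonic stem cells it is known for silencing endogenous retroviruses and introduced retroviral vectors, and, together with Zfp57, for keeping the methylation of imprinted genes.

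The label was checked first on the introduced gene, which lies on chromosome 7. Trim28 has a pair of probe sets here. One gave 11.12 on the array labelled Trim28, 10.93 with Cnot1, 11.0 with Cnot2, 11.10 with Cnot3, 11.41 with Cnot123, 11.25 with Nanog and 11.45 with empty vector. The other gave 11.97 on the array labelled Trim28, 11.77, 11.67, 11.70 and 12.05 on the Cnot arrays in the same order, 11.99 with Nanog and 11.98 with empty vector. The differences from empty vector were -0.33 and -0.01, and neither probe set was highest on the array labelled Trim28. The measured mRNA thus does not bear out the label. Every direction given below is that of the array labelled Trim28, not of a measured gain of Trim28 mRNA. The sources used here do not say whether the introduced cDNA contains the stretch these probes read. Other introduced genes were within 2-fold of empty vector on their own arrays too. Nanog differed there by -0.99, the 6 probe sets of Cnot2 by -0.32 to 0.08, and those of Cnot3 by 0.06 and 0.30. The Cnot3 probe set with the 0.30 was highest on its own array, at 6.892 against 6.884 with Nanog.

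That the control is 2B1 also rests on its label. For the 367 probe sets at least 4-fold above in untreated 5C5 relative to untreated 2B1, the median signal was 6.76 on the array labelled Trim28 and 7.49 with empty vector, beside 8.04 in untreated 5C5 and 4.93 in untreated 2B1. For the 217 at least 4-fold below in 5C5 it was 7.42 on the array labelled Trim28 and 6.52 with empty vector, beside 5.29 in untreated 5C5 and 8.38 in untreated 2B1. In both sets the empty vector array was nearer to 5C5 than to the clone it is named for. The Nanog array, at 7.12 and 6.52, was nearer to 5C5 in both sets too. The array labelled Trim28 was nearer to 5C5 in the first set and to 2B1 in the second. The untreated arrays were treated as normalized separately because their value distributions differ. Whether the empty vector sample or these others come from 2B1 was not tested. Every difference from empty vector below depends on the empty vector sample.

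Genes of the proteins that work with Trim28 stood close together on both arrays. Of 20 paralogs and partners measured, 0 were 2-fold higher and 0 were 2-fold lower, and their median difference was 0.00. Over all 18193 genes 0.698% were higher and 1.18% lower, shares at which 20 genes would mostly hold 0. Setdb1 read 9.32 on the array labelled Trim28 and 9.43 with empty vector. Zfp57, the zinc finger protein of imprinted regions, read 6.81 on the array labelled Trim28 and 6.78 with empty vector. The widest differences were of Resf1, a partner of Setdb1 in silencing retroviruses, at -0.56, and of the chromatin remodeler Smarcad1 at 0.47.

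The cells were checked against their defining genes on the 7 transduced arrays. Pou5f1, a core factor that partial iPSCs also express, read 12.53 on the array labelled Trim28 and 12.43 with empty vector. Zfp42, a marker of the naive pluripotent state, read 2.61 on the array labelled Trim28 and 2.71 with empty vector, below the lower quartile of each array, which lay between 3.55 and 3.66. Nanog read 4.25 on the array labelled Trim28 and 4.11 with empty vector, and 3.12 to 3.82 on the other 5 arrays. Nanog and Zfp42, which full conversion switches on, were thus dim on both arrays.

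The differences of the members ran from 2.48 to -2.66, with medians of 1.28 among the higher and -1.21 among the lower. Over all 34945 probe sets the median difference was 0.02. Differences past 4-fold were found in 9 higher and 17 lower members. Of the members, 184 higher and 287 lower ones had a signal of at least 5.42, the median of the table, on at least 1 of the arrays, and the rest were dim on both. Nearest the threshold, Napb lay just inside at 1.0 (6.71 with Trim28, 5.71 with empty vector) and Agtpbp1 just outside at 0.997. On the lower side, Zxda lay just inside at -1.0 and Amy1 just outside at -0.999.

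**Figure D1:**
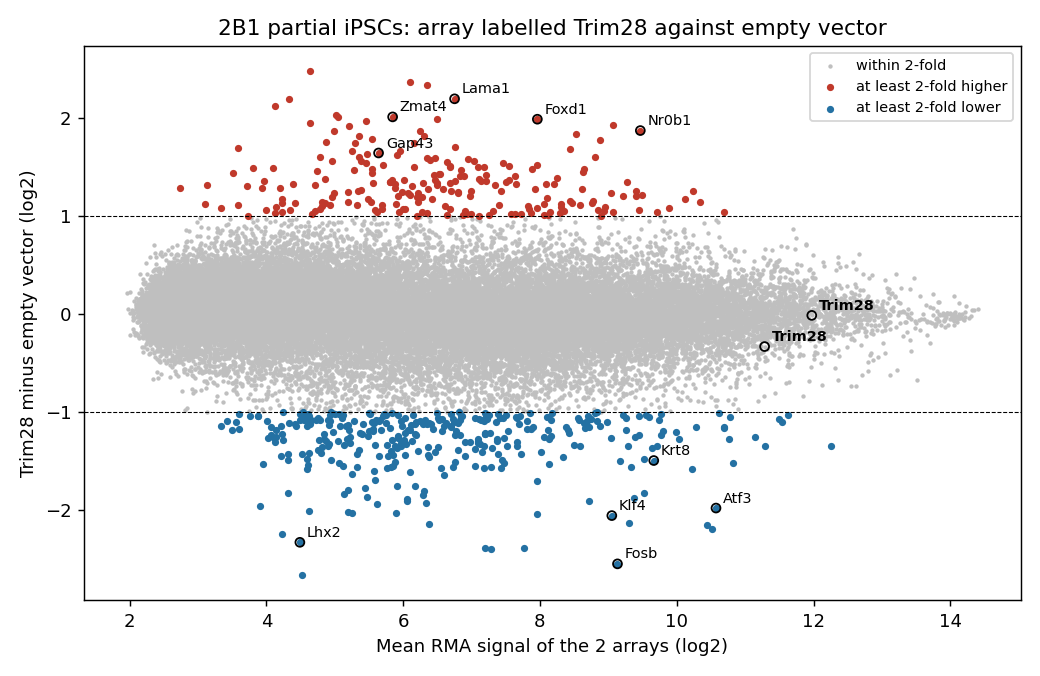
Difference between the array labelled Trim28 and the empty vector array (log2, vertical axis) against the mean signal of both arrays (log2, horizontal axis), with 1 point for each of 34945 probe sets. The 214 higher members are red and the 340 lower members blue, dashed lines mark 2-fold, and both Trim28 probe sets sit inside the lines.

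Of 22 gene lists, immediate early genes had the most lower members. These are genes that cells transcribe within minutes of a growth factor or stress signal, without new protein synthesis; many encode transcription factors of the AP-1, Egr and Nr4a families, and others are brakes on the same signals. Of 28 listed genes, each read by its brightest probe set, 11 were at least 2-fold lower on the array labelled Trim28, 0 were higher, 27 had a difference below 0, and the median was -0.76. Over all 18193 genes read in the same way, 1.18% were 2-fold lower and 0.698% higher, with a median of 0.01. The list was drawn up with results of these data known.

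Fosb, an AP-1 subunit on chromosome 7, was the lowest of them. It read 7.86 on the array labelled Trim28, 8.93 with Cnot1, 9.14 with Cnot2, 8.10 with Cnot3, 7.81 with Cnot123, 10.25 with Nanog and 10.41 with empty vector, so Trim28 minus empty vector was -2.55. Its level with Trim28 lay close to those with Cnot3 and Cnot123, while Nanog and empty vector made up the high end.

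Atf3, a stress-induced transcription factor, read 9.58 on the array labelled Trim28, 10.81, 10.95, 9.44 and 9.29 on the Cnot1, Cnot2, Cnot3 and Cnot123 arrays, 11.37 with Nanog and 11.56 with empty vector, a difference of -1.98. Jun, the partner of Fos proteins in AP-1, read 8.44 on the array labelled Trim28, 10.02, 10.11, 8.68 and 8.93 on the Cnot arrays in that order, 10.07 with Nanog and 10.32 with empty vector, a difference of -1.88. The array labelled Trim28 was the lowest of the 7 for Jun, and Cnot3 and Cnot123 were nearest to it. Egr1, a zinc finger factor induced by growth factors, read 11.58 with Trim28, 12.63, 12.50, 12.07 and 12.54 on the Cnot arrays, 13.19 with Nanog and 12.93 with empty vector. Btg2, an antiproliferative protein that binds the Ccr4-Not deadenylase, read 10.98 with Trim28, 12.36, 12.18, 11.14 and 11.57 on the Cnot arrays, 12.03 with Nanog and 12.09 with empty vector. Egr1 and Btg2 were lowest on the array labelled Trim28 as well, with differences of -1.35 and -1.10 from empty vector.

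The other 6 genes of this group past 2-fold were Arc, an activity-regulated synaptic gene (-1.82), Zfp36, which drives decay of mRNAs with AU-rich elements (-1.35), Dusp1, a phosphatase that switches off MAP kinases (-1.35), Egr2 (-1.27), the orphan nuclear receptor Nr4a2 (-1.16) and Egr3 (-1.15). Each of these 6 was lower on the Cnot123 array than on the array labelled Trim28. Arc was the most distant of them, with 8.61 on the array labelled Trim28, 4.98 with Cnot123 and 10.44 with empty vector. Of all 28 genes, 7 had their lowest value of the 7 arrays with Trim28 and 18 with Cnot123, and 10 had their highest with empty vector and 9 with Nanog. Fos read 13.17 on the array labelled Trim28 and 13.85 with empty vector, within 2-fold, and Fosl1 was the single gene above 0, at 0.23.

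**Figure D2:**
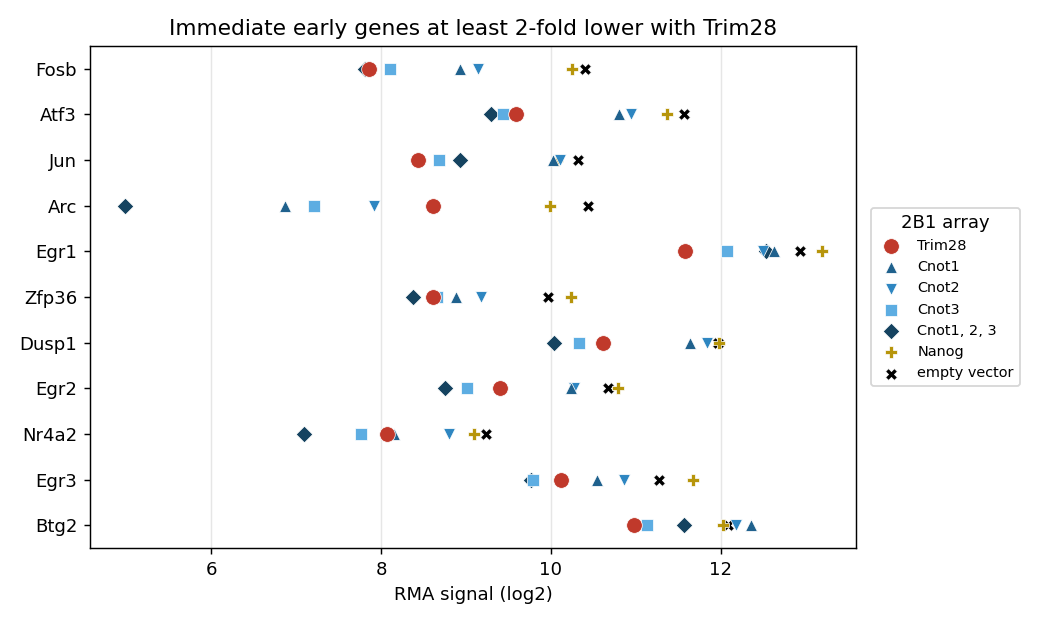
Signal (log2 RMA, horizontal axis) of the 11 immediate early genes at least 2-fold lower on the array labelled Trim28, 1 line a gene and 1 symbol for each of the 7 transduced 2B1 arrays. The red points of the array labelled Trim28 lie left of the black crosses of empty vector on every line, and the Cnot3 and Cnot123 symbols are often nearest to them.

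Several probe sets of these genes can be set side by side. Both probe sets of Jun were lower by at least 2-fold (-1.88 and -1.23), as were both of Egr2 (-1.27 and -1.19). Of 6 probe sets of Nr4a2, 3 were past 2-fold, and the other 3 lay between -0.63 and -0.11. Egr3 had a second, dimmer probe set that was higher by 0.53.

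Promoter sequences of these genes are shown because the group shares signal-responsive promoters. For 8 of the 11 genes the RefSeq promoter table of build GRCm38.p6 gives the DNA before the start site, and the 250 bases upstream are printed 5′ to 3′ on the gene's strand for 6 of them. Capitals mark TGACG on either strand (CGTCA on the reverse), a part of the cAMP response element that CREB and ATF proteins bind. The windows are Fosb at chr7:19310046-19310295, Atf3 at chr1:191183334-191183583, Nr4a2 at chr2:57124004-57124253, Dusp1 at chr17:26508473-26508722, Btg2 at chr1:134079156-134079405 and Jun at chr4:95052223-95052472, all on the minus strand.
Fosb: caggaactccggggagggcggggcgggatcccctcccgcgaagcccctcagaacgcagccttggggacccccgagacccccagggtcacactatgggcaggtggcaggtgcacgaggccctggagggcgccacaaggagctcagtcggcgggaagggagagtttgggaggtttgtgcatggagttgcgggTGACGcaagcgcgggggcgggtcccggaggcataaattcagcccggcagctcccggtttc
Atf3: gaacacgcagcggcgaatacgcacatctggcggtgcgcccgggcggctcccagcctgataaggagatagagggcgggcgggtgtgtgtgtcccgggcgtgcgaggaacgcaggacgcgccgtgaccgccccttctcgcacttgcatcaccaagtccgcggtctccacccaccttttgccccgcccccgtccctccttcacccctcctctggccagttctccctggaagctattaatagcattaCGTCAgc
Nr4a2: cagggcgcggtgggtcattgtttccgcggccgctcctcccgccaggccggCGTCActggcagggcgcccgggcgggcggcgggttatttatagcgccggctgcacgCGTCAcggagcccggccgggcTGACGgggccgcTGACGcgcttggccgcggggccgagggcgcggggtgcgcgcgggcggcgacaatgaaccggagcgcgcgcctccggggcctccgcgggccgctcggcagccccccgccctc
Dusp1: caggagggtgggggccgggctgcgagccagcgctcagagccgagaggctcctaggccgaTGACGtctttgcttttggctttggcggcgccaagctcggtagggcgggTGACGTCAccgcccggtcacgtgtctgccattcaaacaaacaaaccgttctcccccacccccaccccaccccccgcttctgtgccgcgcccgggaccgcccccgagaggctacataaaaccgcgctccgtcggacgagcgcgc
Btg2: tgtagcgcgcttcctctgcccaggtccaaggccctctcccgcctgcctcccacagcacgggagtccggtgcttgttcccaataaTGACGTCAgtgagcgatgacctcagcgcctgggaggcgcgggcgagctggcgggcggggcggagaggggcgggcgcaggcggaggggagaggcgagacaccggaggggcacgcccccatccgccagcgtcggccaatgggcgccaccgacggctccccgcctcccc
Jun: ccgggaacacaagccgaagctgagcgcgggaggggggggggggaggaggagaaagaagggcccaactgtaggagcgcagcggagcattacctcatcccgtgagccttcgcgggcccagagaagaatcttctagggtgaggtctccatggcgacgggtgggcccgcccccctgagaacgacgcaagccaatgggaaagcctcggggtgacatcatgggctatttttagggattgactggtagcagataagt
The windows of Dusp1 and Btg2 each hold the whole palindrome TGACGTCA, which contains TGACG on both strands, and the Jun window holds no TGACG.

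Among the lower immediate early genes with a window, 6 of 8 held TGACG (75%), and among the other immediate early genes 8 of 14 did (57.1%). Over the 27025 genes with windows of this length the share was 19.8%. The whole TGACGTCA stood in 2 of 8 (25%) against 1.77% of all genes, and the serum response element, read by Srf, in 2 of 8 against 1.62%. The AP-1 motif TGANTCA was found in 0 of 8, against 7.82% of all genes. Over all member genes, TGACG stood in 31 of 129 higher genes (24%) and in 70 of 218 lower genes (32.1%). These matches describe letters in a window and not binding.

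Epithelial genes were the next group on the lower side. Of 19 listed, 4 (21.1%) were at least 2-fold lower on the array labelled Trim28 and 0 were higher. Of these 19, 15 had a difference below 0, and the median was -0.67. Over all 18193 genes 1.18% were lower and 0.698% higher. This list too was drawn up with results of these data known. Krt8, a keratin of simple epithelia, read 8.92 on the array labelled Trim28, 6.73, 8.13, 8.29 and 4.70 on the Cnot1, Cnot2, Cnot3 and Cnot123 arrays, 9.06 with Nanog and 10.41 with empty vector. Its 3 probe sets differed from empty vector by -1.49, -1.48 and -1.11. Empty vector was the highest array for Krt8, and the array labelled Trim28 lay between it and the Cnot arrays.

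The adhesion molecule Epcam read 9.16 on the array labelled Trim28, 8.04, 8.80, 8.44 and 6.47 on the Cnot arrays, 9.88 with Nanog and 10.39 with empty vector, and its dimmer second probe set differed by 0.02. The tight junction proteins Cldn4 and Cldn7 were lower by differences of -1.16 and -1.15. Cdh1, the epithelial cadherin, stayed within 2-fold at -0.67, with 9.50 on the array labelled Trim28, 3.34 on the Cnot123 array and 10.17 with empty vector. For 13 of the 19 genes empty vector gave the highest value of the 7 arrays, and for 12 Cnot123 gave the lowest. Less RNA per cell and fewer cells of a type cannot be told apart on arrays of whole cultures, here or below.

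On the untreated arrays 5C5 read 9.59 for Krt8, 11.26 for Epcam, 7.89 for Cldn4 and 9.30 for Cldn7. Untreated 2B1 read 5.43, 8.08, 3.91 and 4.10 for the same genes. With the median of the other 6 transduced arrays as control in place of empty vector, 0 epithelial genes were 2-fold lower on the array labelled Trim28, and 6 immediate early genes were.

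Further genes among the 15 lowest were of varied function. Ugt8a, which makes galactosylceramide, had the lowest difference, with 3.20 on the array labelled Trim28, 2.40, 2.93, 3.17 and 2.67 on the Cnot arrays, 4.02 with Nanog and 5.86 with empty vector. Lhx2, a LIM homeobox factor of eye and forebrain on chromosome 2, read 3.33 on the array labelled Trim28, 2.89, 3.17, 3.16 and 3.01 on the Cnot arrays, 4.97 with Nanog and 5.65 with empty vector, a difference of -2.33. For both genes the array labelled Trim28 and all Cnot arrays lay near the bottom of the scale, so these differences are bounded by background.

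Nell1, a secreted protein known from bone formation, read 6.09 on the array labelled Trim28, 3.35, 5.71, 4.64 and 2.55 on the Cnot arrays, 8.44 with Nanog and 8.49 with empty vector. The receptor phosphatase Ptpru read 6.00 on the array labelled Trim28, 5.65 to 6.16 on the Cnot arrays, 7.32 with Nanog and 8.39 with empty vector. Klk1, tissue kallikrein, read 9.41 on the array labelled Trim28, 9.12, 10.39, 9.66 and 6.19 on the Cnot arrays, 11.51 with Nanog and 11.61 with empty vector. In each of these 3 genes Nanog and empty vector were the highest arrays. Of 4 probe sets of Klk1, 2 were members, at -2.19 and -2.15, and the others differed by -0.64 and 0.07.

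Sox3, a factor of neural progenitors, read 5.37 on the array labelled Trim28, 4.13 to 5.12 on the Cnot arrays, 7.96 with Nanog and 7.29 with empty vector, and the eye and forebrain factor Six3 was lower by a difference of -1.45. With Lhx2 they were the 3 lower members among 16 neural genes (18.8%, against 1.18% of all genes). Tubb3, a neuronal tubulin, was the 1 higher member (6.25%, against 0.698% of all genes), at 1.02, and the list's median was 0.12. Flt1, a receptor for vascular endothelial growth factor, differed by -2.14 in 1 of 4 probe sets, and the others ran from -0.98 to -0.65.

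Klf4, a reprogramming factor, differed by -2.06 in one probe set (8.02 on the array labelled Trim28, 7.5 to 8.53 on the Cnot arrays, 10.18 with Nanog and 10.08 with empty vector). Its brighter probe set differed by -0.64, with 10.90 on the array labelled Trim28 and 11.54 with empty vector. The remaining genes of the 15 lowest were 2610528A11Rik (-2.13), Vsir, an immune checkpoint protein (-2.03), Cttnbp2, a cortactin-binding protein (-2.0), loricrin (Lor, -1.94) and Cd164l2 (-1.91). In Vsir, Cttnbp2 and Lor the other probe sets of the gene differed by -0.49 to 0.24, so those members rest on 1 probe set each. The same holds for Ugt8a, Nell1, Ptpru and Sox3, whose other probe sets differed by 0.29, -0.22, 0.03 and 0.13. It also holds for Six3, with -0.28 and 0.02.

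On the higher side, no listed group had more than 3 members. Lama1, the laminin alpha chain of early basement membranes on chromosome 17, read 7.85 on the array labelled Trim28, 7.77, 7.56, 7.71 and 8.26 on the Cnot1, Cnot2, Cnot3 and Cnot123 arrays, 4.78 with Nanog and 5.66 with empty vector, a difference of 2.19. The array labelled Trim28 lay inside the range of the Cnot arrays for this gene, and Nanog and empty vector lay below them. Among 23 endoderm and basement membrane genes it was the 1 higher member. Foxa1, a pioneer factor of endoderm, was the 1 lower member at -1.49, and the median was 0.02. Each is 4.35% of that list, against 0.698% higher and 1.18% lower over all genes.

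Zmat4, a zinc finger protein on chromosome 8, read 6.85 on the array labelled Trim28, 5.85, 6.02, 6.57 and 7.84 on the Cnot arrays, 4.12 with Nanog and 4.84 with empty vector, a difference of 2.01. Its other probe sets differed by 0.77 and 0.59, in the same direction and within 2-fold. Foxd1, a forkhead factor known from kidney stroma, read 8.95 on the array labelled Trim28, 9.24, 9.43, 9.73 and 10.53 on the Cnot arrays, 7.71 with Nanog and 6.97 with empty vector. Every Cnot array was above the array labelled Trim28 for Foxd1.

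Naive pluripotency genes gave 3 higher (15%) and 1 lower member (5%) among 20, with a median of 0.05. Over all genes the shares were 0.698% and 1.18%. Nr0b1, a nuclear receptor of the pluripotency network, read 10.40 on the array labelled Trim28, 10.13, 10.26, 10.65 and 11.54 on the Cnot arrays, 7.70 with Nanog and 8.53 with empty vector. Klf5, a Krüppel-like factor of the naive state, read 10.90 on the array labelled Trim28, 10.10 to 10.95 on the Cnot arrays, 9.71 with Nanog and 9.76 with empty vector. The other probe sets of Klf5 differed by 0.12 and -0.08, so this member rests on 1 probe set. For Nr0b1 and the member probe set of Klf5 the array labelled Trim28 lay among the Cnot arrays. Dppa2, an early embryonic chromatin factor, was higher in both probe sets, by 1.33 and 2.12. These were dim, at 5.05 and 5.18 on the array labelled Trim28 and 3.72 and 3.06 with empty vector. With Cnot123 they read 5.72 and 6.37, and in the Nanog-GFP embryonic stem cells 12.01 and 12.13. Klf2, a factor of the same family as Klf5, was lower at -1.41 and had its lowest value of the 7 arrays, 5.76, with Trim28.

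Of the other higher genes, Phactr1, a regulator of protein phosphatase and actin, had the widest difference of the higher members in 1 probe set (5.87 on the array labelled Trim28, 5.92 with Cnot123 and 3.4 with empty vector) and 1.26 in its brighter one. Ddc, which makes dopamine and serotonin from their precursors, read 10.04 on the array labelled Trim28, 10.17 to 10.83 on the Cnot arrays, 8.17 with Nanog and 8.11 with empty vector. Both probe sets of the cytokine Il7 were members, at 1.86 and 1.48. Slc5a9, a sodium-coupled sugar transporter, differed by 1.95 in one probe set and by 0.83 to 0.92 in the other 3. Camk2d, a calcium-dependent kinase, differed by 2.19 in 1 of 7 probe sets, and the other 6 ran from -0.17 to 0.33.

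The rest of the 15 highest were 2610300M13Rik (2.37), G530011O06Rik (2.34), the transcription factor Tfap2d (2.0), Aoah, which inactivates bacterial endotoxin (1.98), the protease-like Prss35 (1.97), the aminotransferase Aadat (1.91) and 1700042O10Rik (1.84). Of these 7, Prss35 was the one with its highest value of the 7 arrays on the array labelled Trim28, 6.43, where the other 6 arrays ran from 4.19 to 5.91.

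**Figure D3:**
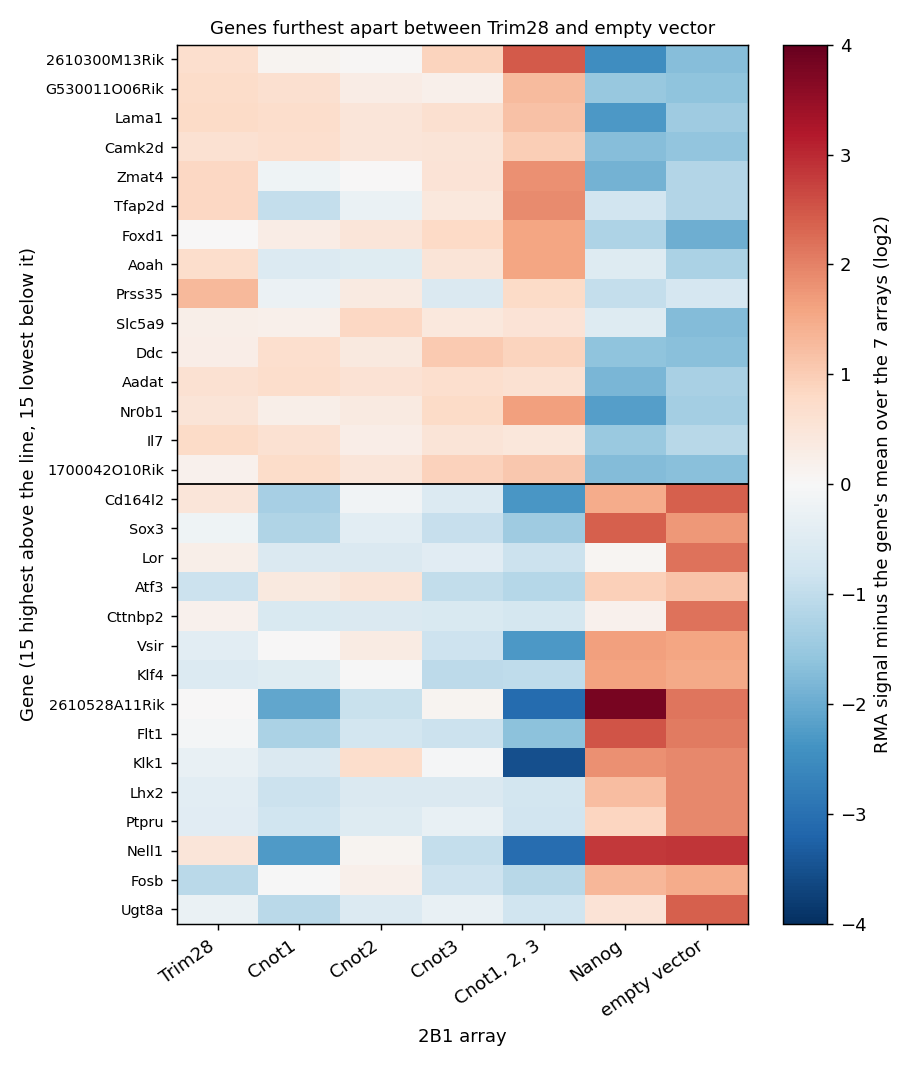
Signal of the 15 highest and 15 lowest genes on the 7 transduced 2B1 arrays, as the deviation from each gene's mean over those arrays (log2, colour scale from blue, lower, to red, higher). The empty vector column at the right is blue in all 15 upper lines and red in all 15 lower ones, and the Nanog column beside it is blue in the upper lines and red or near white in the lower ones.

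The direction of many of these genes depends on the control array. Against the median of the other 6 transduced arrays, 4 of the 15 highest and 9 of the 15 lowest genes changed sign, among them Foxd1 (-0.38) and Sox3 (0.49). For 3 of those 9, Ugt8a, Lhx2 and Cttnbp2, the array labelled Trim28 and the control both read under 3.66, the highest lower quartile of the arrays, so the sign there is a difference between background values. Against untreated 2B1, treated as separately normalized, 6 and 11 did, Ugt8a and Cttnbp2 again with both values that low, among them Lama1 (-0.67), which read 8.65 there, and Nell1 (2.22), which read 4.01. The leading probe set of Zmat4 (0.92 and 2.02), Fosb (-1.18 and -0.13) and Atf3 (-1.29 and -0.39) kept their sign against the other 6 arrays and against untreated 2B1, but Fosb and Atf3 were within 2-fold of untreated 2B1 and Zmat4 within 2-fold of the other 6.

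The comparisons of the other factors use the same empty vector array, so they are not independent of this one and their values are set side by side only. Over the 214 higher members the median difference from empty vector was 1.28 with Trim28, 1.34 with Cnot1, 1.25 with Cnot2, 1.25 with Cnot3, 1.46 with Cnot123 and 0.01 with Nanog. Over the 340 lower members it was -1.21 with Trim28, -1.83 with Cnot1, -1.54 with Cnot2, -1.69 with Cnot3, -2.23 with Cnot123 and -0.54 with Nanog. Median signals of the lower members were 5.65 with Trim28, 4.94, 5.53, 5.25 and 4.57 on the Cnot arrays, 6.48 with Nanog and 6.99 with empty vector.

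Placed among the Cnot arrays alone, the array labelled Trim28 was above all 4 Cnot arrays in 193 of 340 lower members (56.8%), within their range in 111 and below it in 36. For the 214 higher members it was above them in 54, within their range in 100 and below it in 60 (28.0%). Over all probe sets 22.2% lay above and 21.9% below that range.

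In number of probe sets 2-fold apart, the array labelled Trim28 was about as far from Cnot2 (537), Cnot3 (590) and empty vector (554), and farther from Nanog (745), Cnot1 (1161) and Cnot123 (1354). Nanog and empty vector were 335 apart. Against empty vector, 2.58% of probe sets were higher and 3.71% lower with Cnot1, 1.75% and 2.38% with Cnot2, 1.54% and 3.29% with Cnot3, 2.51% and 5.21% with Cnot123, and 0.349% and 0.61% with Nanog. The shares of the array labelled Trim28, 0.612% and 0.973%, stood above those of Nanog and below those of the Cnot arrays. No pair of arrays repeats a condition, so none of these distances has an error.

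To find what set the array labelled Trim28 apart, each probe set was also compared with all 6 other transduced arrays. A total of 6 probe sets (0.0172%) lay at least 1 above the highest of the other 6, and 0 lay at least 1 below the lowest. The same rule gave 4 above (0.0114%) and 7 below (0.02%) with Cnot1, 0 of either with Cnot2, 2 (0.00572%) and 1 (0.00286%) with Cnot3, 45 (0.129%) and 134 (0.383%) with Cnot123, and 59 (0.169%) and 28 (0.0801%) with Nanog. With empty vector it gave 71 above (0.203%) and 1 below (0.00286%). The arrays are different conditions, so these counts are descriptions.

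Gap43, a growth cone protein on chromosome 16, led them. It read 6.46 on the array labelled Trim28, 3.75, 4.03, 4.15 and 3.80 on the Cnot1, Cnot2, Cnot3 and Cnot123 arrays, 4.55 with Nanog and 4.82 with empty vector, 1.64 above the nearest. Brinp1, a neuronal protein that restrains the cell cycle, read 4.44 on the array labelled Trim28 and 2.74 to 3.02 on the other 6, which is near the bottom of the scale. Sema6d, an axon guidance semaphorin, read 7.35 on the array labelled Trim28 and 5.57 to 6.12 on the other 6, and its other 3 probe sets differed from empty vector by 0.25 to 0.55.

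Atp2b2, a plasma membrane calcium pump on chromosome 6, read 7.0 on the array labelled Trim28, 5.69, 5.77, 5.84 and 5.69 on the Cnot arrays, 5.92 with Nanog and 5.73 with empty vector. All 3 of its probe sets were members, with differences of 1.27, 1.14 and 1.47, and all 3 were highest on the array labelled Trim28. Gap43 and Brinp1 have 1 probe set each. Rab39b, a small GTPase of vesicle traffic in neurons, read 7.43 on the array labelled Trim28 and 5.19 to 6.38 on the other 6. Flrt3, a membrane protein of cell adhesion and axon guidance, read 9.39 on the array labelled Trim28 and 7.51 to 8.39 on the other 6.

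The fibroblast array, treated as separately normalized, read 9.67 for Gap43, 6.32 for Brinp1 and 8.01 for Sema6d. Untreated 2B1 read 4.45, 3.01 and 6.05 for the same genes. Gap43 also read 7.92 in the Nanog-GFP embryonic stem cells and 5.92 in untreated 5C5. In those stem cells and in untreated 5C5, Brinp1 read 3.28 and 2.825, and Sema6d 4.04 and 6.05. For Atp2b2 the fibroblasts read 4.78 and untreated 2B1 5.29. For Flrt3 the fibroblasts read 7.995 and untreated 2B1 8.49, and for Rab39b 5.845 and 5.11. Untreated 5C5 read 6.79 for Rab39b, 7.99 for Flrt3 and 4.65 for Atp2b2. In Atp2b2, Flrt3 and Rab39b the fibroblast value was thus below that of the array labelled Trim28. Fibroblast and mesenchymal markers gave 1 higher member of 27 (3.70%, against 0.698% of all genes), Col3a1, a fibrillar collagen, at 1.24. In this list 0 were lower, 19 were above 0, and the median was 0.23. The part of other cells in these values was not tested.

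**Figure D4:**
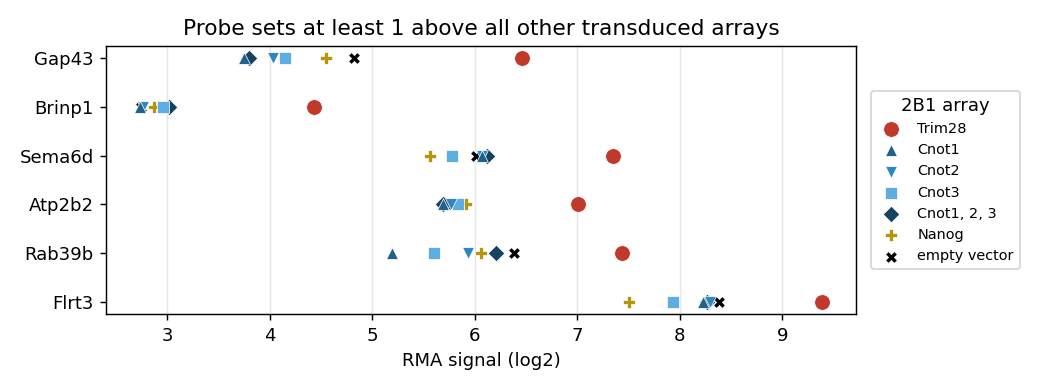
Signal (log2 RMA, horizontal axis) of the 6 probe sets whose value on the array labelled Trim28 lies at least 1 above all other transduced 2B1 arrays, 1 symbol an array. In each line the red point stands alone at the right, by 1.64 for Gap43 and 1.0 for Flrt3.

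Probe sets of member genes that were no members themselves were read on the same arrays. For 90 of the higher genes there were 196 such probe sets, of which 169 (86.2%) were above 0, with a median of 0.39. For 165 of the lower genes there were 314, of which 214 (68.2%) were below 0, with a median of -0.21. Over all 34391 probe sets that are no members, 52.7% were above 0 and 47.2% below, with a median of 0.02. Probe sets of a gene share the RNA, so they are not replicates of the condition.

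A contrast that shares no array with the rule is the difference between the untreated clones. Of the 340 lower members, 183 (53.8%) were at least 2-fold higher in untreated 5C5 than in untreated 2B1, and 0 were 2-fold lower. Over all probe sets 3.93% were higher in 5C5, 1374 in number, of which the 183 are 13.3%. Of the 214 higher members, 111 (51.9%) were at least 2-fold lower in 5C5 and 9 were higher. Over all probe sets 3.05% were lower, 1067 in number, of which the 111 are 10.4%. The median clone difference, 5C5 minus 2B1, was 1.12 over the lower members, -1.08 over the higher members and -0.03 over all probe sets. Each clone is 1 array, so this contrast has no error either.

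Turned round, probe sets were taken by the clones alone. The 367 probe sets at least 4-fold above in 5C5 had a median difference, Trim28 minus empty vector, of -0.68; 106 of them (28.9%) were lower members, against 0.973% of all probe sets, and 314 (85.6%) were below 0, against 47.4% of all. Their median signal was 6.76 with Trim28, 5.23, 5.99, 5.88 and 4.93 on the Cnot arrays, 7.12 with Nanog and 7.49 with empty vector. The untreated arrays, treated as separately normalized, gave 8.04 for 5C5 and 4.93 for 2B1. The 217 probe sets at least 4-fold below in 5C5 had a median difference of 0.76; 69 (31.8%) were higher members, against 0.612% of all probe sets, and 200 (92.2%) were above 0, against 52.5% of all. Their median signal was 7.42 with Trim28, 8.02, 7.88, 7.84 and 7.58 on the Cnot arrays, 6.52 with Nanog and 6.52 with empty vector, and 5.29 in untreated 5C5 and 8.38 in untreated 2B1. For both sets the array labelled Trim28 stood between the Cnot arrays and the empty vector array. The reason was not tested.

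In other cells of the series the members lay on both sides of untreated 2B1. Of the 214 higher members, 99 (46.3%) were at least 2-fold lower in fibroblasts and 119 (55.6%) in the Nanog-GFP embryonic stem cells, against 11% and 10.4% of all probe sets, while 38 (17.8%) and 21 (9.81%) were at least 2-fold higher, against 9.55% and 7.84%. Of the 340 lower members, 109 (32.1%) were at least 2-fold higher in fibroblasts and 100 (29.4%) in those stem cells, and 52 (15.3%) and 58 (17.1%) were at least 2-fold lower, beside the same shares of all probe sets. These comparisons and that of the clones share the untreated 2B1 array.

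**Figure D5:**
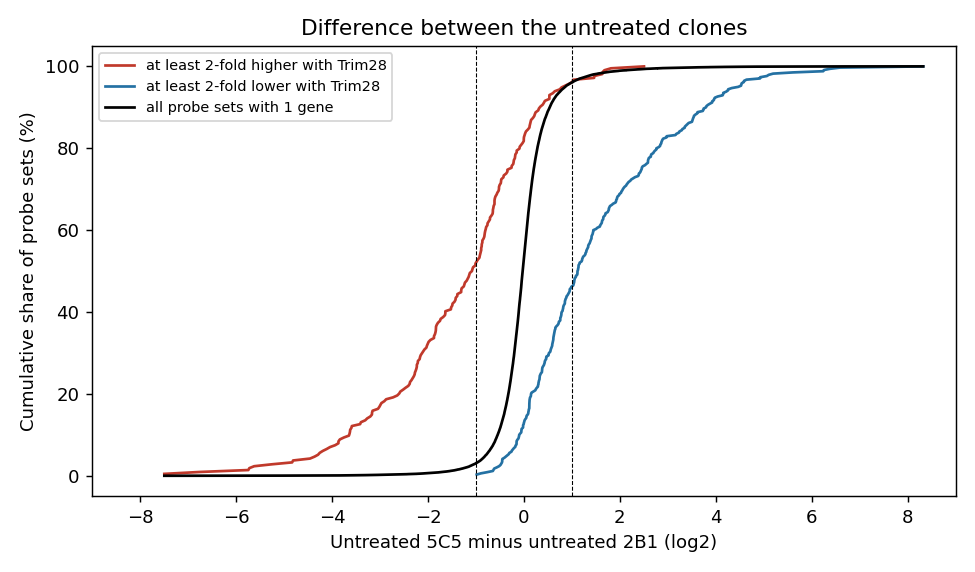
Cumulative share of probe sets (percent, vertical axis) by the difference untreated 5C5 minus untreated 2B1 (log2, horizontal axis), for the members higher (red) and lower (blue) with Trim28 and for all probe sets with 1 gene (black). Dashed lines mark 2-fold, and the red curve lies left and the blue curve right of the black one.

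Zinc finger and imprinted genes, tied to the known roles of Trim28, were counted as groups. Of 336 genes named Zfp with a number, a name that does not show a KRAB domain, 3 were higher (0.893%) and 5 lower (1.49%), with a median of -0.03, shares close to the 0.698% and 1.18% of all genes. The higher were Zfp941 (1.60), Zfp979 (1.46) and Zfp991 (1.32). Zfp941 read 6.16 on the array labelled Trim28, 6.62 to 6.78 on the Cnot arrays, 3.91 with Nanog and 4.56 with empty vector. The lower were Zfp36 (-1.35), Zfp768 (-1.27), Zfp354b (-1.25), Zfp46 (-1.15) and Zfp703 (-1.12). Zfp36 encodes an RNA-binding protein and no KRAB factor.

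Of 26 imprinted genes, 0 were higher and 2 lower (7.69%, against 1.18% of all genes), with a median of 0.06. Airn, the noncoding RNA of the Igf2r locus, read 4.76 on the array labelled Trim28 and 5.97 with empty vector. Only this probe set of Airn was past 2-fold, and its others ran from -0.997 to 0.05. Phlda2, a growth regulator of the placenta, read 8.73 on the array labelled Trim28, 5.89, 7.33, 7.94 and 5.47 on the Cnot arrays, 10.10 with Nanog and 9.79 with empty vector. Genes of the two-cell stage embryo, which include targets of retroviral promoters, were 6 measured of 17 listed. They gave 0 higher and 0 lower, against 0.698% and 1.18% of all genes, with a median of 0.14. Their median signal was 2.92 on the array labelled Trim28 and 2.88 with empty vector. Both lie under the lower quartile of each array, 3.55 to 3.66, so lower values could hardly be seen.

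In other lists few genes passed 2-fold. Lower were Btg2 and Tob1 (-1.07) of 15 Ccr4-Not subunits and partners (13.3%) and Apobec2 (-1.12) of 10 genes of DNA methylation (10%). The cell cycle inhibitor locus Cdkn2a (-1.04) was lower among 12 p53 and senescence genes (8.33%). The lysosomal protein Cd68 (-1.01) was lower among 13 macrophage and blood genes (7.69%). Each share was above the 1.18% lower of all genes, but rests on 1 or 2 genes. No gene was higher in these lists. Core reprogramming factors (7 genes by their brightest probe set), ERK feedback (11), mesoderm (11), trophoblast (12), germline (16), interferon response (16), stress response (16), cell cycle (22) and muscle genes (10) had 0 past 2-fold in either direction. Their medians ran from -0.26 for the core factors to 0.13 for trophoblast genes. Lists this short would often hold 0 at the shares of all genes, 0.698% higher and 1.18% lower. The germline genes had a median signal of 2.94 on the array labelled Trim28 and 2.90 with empty vector, near background, so lower values could hardly be seen.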

How the data were processed

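Total RNA of 14 samples was hybridised to Affymetrix arrays, 1 array a sample. The authors deposited log2 values of 45101 probe sets, made with RMA and the affy package per the submitters' processing notes; their versions were not stated there. RMA equalises the distributions of arrays, so shifts of all genes together cannot be seen. The 7 transduced arrays and the other 7 had different value distributions and were treated as separately normalized.

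Of the probe sets, 64 were controls, 932 had several genes, 9160 had none and 34945 had 1 gene; gene identifiers of 34741 matched the RefSeq table of GRCm38.p6. Differences were Trim28 minus empty vector, counted from 1 on the log2 scale. Lists (22, with 378 symbols) used each gene's probe set with the highest mean. Members and lists were chosen with earlier results of these data known. Genes named are Trim28, Lama1, Zmat4, Fosb, Lhx2, the 15 highest and 15 lowest genes, each read by its member probe set that reaches 5.42 on either array and has the highest mean of the 7 transduced arrays, those at least 1 beyond the other 6 transduced arrays, and those past 2-fold in a list, or otherwise up to 4 a list. Phactr1 (1.26 by that probe set), Neo1, the genes beside the threshold, Setdb1, Zfp57, Pou5f1, Zfp42, Nanog, Fos, Fosl1 and Cdh1 fall outside this rule and were chosen after their values were seen. Python 3.11.15, pandas 2.3.3, numpy 2.4.6 and matplotlib 3.10.9 were used, and the counting was tested on simulated data. The number of arrays limits the precision.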

Additional observations from a re-analysis of the deposited data

How the results depend on the processing

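Scaling moved little: the higher and lower counts were 200 and 365 with each array centred on its median and 226 and 324 after a second quantile normalization of the 7 transduced arrays, and under the second quantile normalization 38 of 38 named probe sets kept their direction and their side of 2-fold. With a threshold of 1.5 the counts were 51 and 64, and with values floored at 5.42 the lower count was 217. The array used as control mattered more. Against the median of the other 6 transduced arrays 55 were lower; against that of the other 5 factor arrays, an alternative chosen after seeing the data because empty vector stands apart, 364 were higher and 103 lower; against untreated 2B1, treated as separately normalized, 1342 were higher and 1967 lower. In place of 11 lower immediate early genes there were 6 against the other 6 arrays, 5 against untreated 2B1 and 5 against the other 5 factors, and in place of 4 lower epithelial genes 0, 1 and 0 under the same controls. The Trim28 probe sets differed by 0.02 and 0.19 from the median of the other 5 factors. A gap of 0.5 put 56 probe sets above and 32 below all other transduced arrays. With the mean over a gene's probe sets, 3 Zfp genes were lower.

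Directions turned as follows. Against untreated 2B1 the differences were 2610300M13Rik -0.11, Lama1 -0.67, Camk2d -1.08, Ddc -0.68, Nr0b1 -0.23, 1700042O10Rik -0.26, Ugt8a 0.33, Nell1 2.22, Ptpru 0.31, Klk1 2.57, Flt1 1.34, 2610528A11Rik 2.20, Klf4 0.11, Cttnbp2 1.15, Lor 0.57, Sox3 1.39 and Cd164l2 2.66. Against the other 6 arrays they were Foxd1 -0.38, Slc5a9 -0.08, Ddc -0.27, 1700042O10Rik -0.43, Ugt8a 0.15, Nell1 0.91, Lhx2 0.17, Flt1 0.73, 2610528A11Rik 0.41, Cttnbp2 0.74, Lor 0.73, Sox3 0.49 and Cd164l2 0.83. Against the other 5 factor arrays they were Foxd1 -0.48, Slc5a9 -0.18, Ddc -0.41, Aadat -0.02, 1700042O10Rik -0.55, Ugt8a 0.27, Nell1 1.45, Ptpru 0.06, Lhx2 0.17, Flt1 0.80, 2610528A11Rik 0.92, Cttnbp2 0.76, Lor 0.79, Sox3 0.74 and Cd164l2 1.04. The values of Ugt8a, Lhx2 and Cttnbp2 in these lists lie between background signals and give no direction. The cause was not tested. No paired analysis was possible because each group is 1 array and no result comes from a test. Signals at the bottom of the scale are background, which bounds the differences of dim genes.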

Other observations

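Chromosome 11 had more genes with a lower member than any other chromosome, 39 of its 1443 genes (2.70%), with 8 higher. It also has the most genes measured, and the next highest share was 2.27% on X. Of all 18193 genes, 287 had a lower member and 169 a higher one. Among the 941 genes of chromosome 11 that reach the median of the table on either array, 74.7% had a difference below 0, with a median of -0.17 for Trim28 minus empty vector. Over all 11068 such genes 54.5% were below 0, with a median of -0.03. The medians of chromosome 11 from the other comparisons, which use the same empty vector array, were -0.43 with Cnot1, -0.35 with Cnot2, -0.28 with Cnot3, -0.34 with Cnot123 and -0.02 with Nanog. Set against the median of the 5 other factor arrays in place of empty vector, chromosome 11 had a median of 0.10 on the array labelled Trim28 and 0.28 on the empty vector array.

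Chromosome 6 stood on the other side. Its 542 such genes had a median difference of 0.10 for Trim28 minus empty vector, with 36.0% below 0, and medians of 0.21, 0.17, 0.20 and 0.23 on the Cnot1, Cnot2, Cnot3 and Cnot123 arrays and -0.02 with Nanog. Between the untreated clones, which share no array with these, chromosome 6 had a median of -0.30 for 5C5 minus 2B1, and chromosome 11 had -0.03. On the remaining chromosomes, X included, the medians for Trim28 minus empty vector lay between -0.07 on chromosome 17 and 0.04 on X.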
